A study of Danio rerio with 7 samples.

Results

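The genes *cart2* (ENSDARG00000045832), *spx* (ENSDARG00000056859), *gal* (ENSDARG00000091377) and *vgf* (ENSDARG00000105529) encode secreted peptides of feeding and energy balance. They are 4 of the 25049 genes in the deposited count table. They were taken by identifier from the study's list of up-regulated hormone genes. That list was drawn up from the same libraries, by thresholds of 0.05 for the adjusted p and 0.6 for the log2 fold change, so the rise of these genes in hypoxia is what chose them. It is described below without a test. A table of gene symbols gives the same names for *spx* and *vgf* and lists the others under the human symbols *CARTPT* and *GAL*. All 4 passed the filter on low counts that left 23716 genes.

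RNA-seq was performed on poly(A) RNA from whole bodies of wild-type zebrafish larvae. Hypoxia was 6% O2 and normoxia was the atmospheric 20.9% O2, both applied over an exposure that began at 81 and ended at 96 hours after fertilization. Each library came from a pool of 30 larvae, with 3 hypoxia and 4 normoxia pools, so a value is an average over whole animals and brain regions cannot be separated. The labels name no allele, transgene or drug for either group.

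Neuropeptides are cut from longer precursors inside dense-core granules by prohormone convertases and are released from neurons and endocrine cells to act on G protein-coupled receptors. In the vertebrate hypothalamus, peptides that raise feeding, such as neuropeptide Y, agouti-related peptide and galanin, are balanced by peptides that lower it, such as the melanocortins and cocaine- and amphetamine-regulated transcript (CART). Spexin is a relative of galanin that activates galanin receptors and has been linked to reduced feeding in fish. VGF is a granin-like protein of neurons and endocrine cells that is induced by neurotrophins, and in mice its loss leaves the animals lean.

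Total counts were 67083058 to 69920400 per library in hypoxia and 70275114 to 78235938 in normoxia. Values are given as CPM, the counts in every 1000000 of the TMM-scaled library size, where 3 counts, taken as the floor of detection, equal 0.0383 to 0.0447 CPM before TMM scaling. CPM does not correct for transcript length, so levels are compared between libraries and not between genes. The labels were checked with 12 well-known targets of hypoxia-inducible factors. By both thresholds 8 of them were higher in hypoxia, as were 3.07% of all tested genes. All 12 had groups that did not overlap with hypoxia higher, as had 26.3% of all tested genes. The prolyl hydroxylase gene *EGLN3* had 2.61 to 3.19 CPM in normoxia and 48.7 to 50.1 CPM in hypoxia. The genes *ANKRD37*, *PFKFB3*, *IGFBP1* and *epoa* followed with log2 fold changes of 3.35, 1.76, 1.25 and 1.25, and *epoa*, the erythropoietin gene, was also on the study's list.

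The *cart2* gene encodes a CART peptide, which lowers feeding in fish and mammals. It had 1.60, 2.03, 1.94 and 1.94 CPM in normoxia replicates 1 to 4, from 116 to 157 counts. In hypoxia replicates 1 to 3 it had 3.29, 4.20 and 3.53 CPM, from 222 to 268 counts. The groups did not overlap, and the lowest hypoxia library was 1.62 times the highest normoxia library. The means were 1.88 ± 0.192 CPM (SD, n = 4) and 3.68 ± 0.470 CPM (SD, n = 3), which is 0.97 on the log2 scale (standard error, SE, 0.12) or 1.95-fold, the largest log2 fold change of the 4 genes.

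The *spx* gene encodes spexin. Its level was 1.004, 1.08, 1.30 and 1.20 CPM in the normoxia libraries and 2.05, 2.04 and 2.12 CPM in the hypoxia libraries. It was the gene with the fewest reads, at 73 to 97 counts in normoxia and 130 to 142 in hypoxia. The hypoxia libraries lay close together and all above normoxia, with a log2 fold change of 0.85 (SE 0.13), or 1.80-fold. The hypoxia mean was 2.07 ± 0.0422 CPM against 1.15 ± 0.128 CPM in normoxia.

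The *gal* gene encodes the precursor of galanin, which raises feeding in fish and mammals when given to the brain. Normoxia libraries held 3.30, 3.48, 3.49 and 3.26 CPM, and hypoxia libraries held 5.19, 5.58 and 5.32 CPM. Both groups were narrow, with a coefficient of variation of 3.48% in normoxia and 3.68% in hypoxia. The mean was 3.38 ± 0.118 CPM in normoxia and 5.36 ± 0.197 CPM in hypoxia, or 0.66 on the log2 scale (SE 0.08) and 1.58-fold.

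The *vgf* gene had by far the most reads of the 4, at 2144 to 2891 counts in normoxia and 3134 to 3939 in hypoxia. Its level was 29.5, 37.4, 31.0 and 33.2 CPM in the normoxia libraries and 46.5, 52.9 and 58.7 CPM in the hypoxia libraries. The groups did not overlap, but the lowest hypoxia library was only 1.25 times the highest normoxia library, normoxia replicate 2. With means of 32.8 ± 3.42 CPM in normoxia and 52.7 ± 6.09 CPM in hypoxia, the log2 fold change was 0.68 (SE 0.09), or 1.61-fold.

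**Figure D1:**
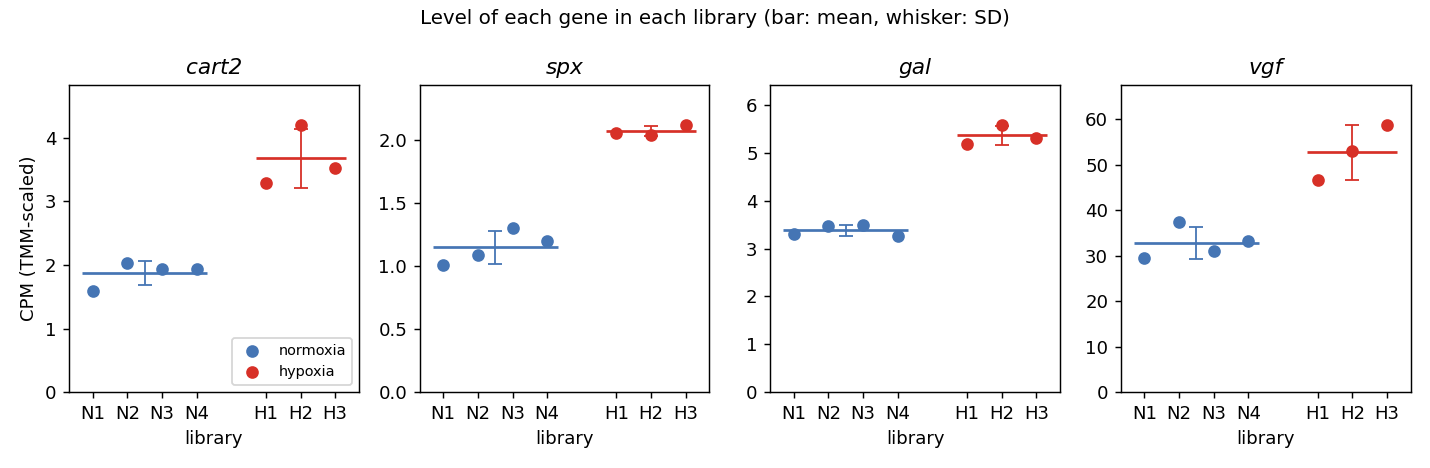
CPM (TMM-scaled, linear axis from 0) of *cart2*, *spx*, *gal* and *vgf* in normoxia libraries N1 to N4 (blue) and hypoxia libraries H1 to H3 (red). Points are libraries, horizontal bars are group means and whiskers are SD. In each of the 4 panels every hypoxia library is above every normoxia library, and the gap is narrowest for *vgf*, from 37.4 to 46.5 CPM.

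All 4 genes were called up-regulated by both thresholds, a call made for 3.07% of all tested genes, and all 4 had groups that did not overlap with hypoxia higher, as had 26.3% of all tested genes. The genes were chosen by this contrast, so neither share is read further. The log2 fold change of *cart2* was exceeded by 0.848% of the tested genes, that of *spx* by 1.28%, that of *vgf* by 2.42% and that of *gal* by 2.73%. Of the 4, *gal* lay nearest to the threshold of 0.6 from above. Among the feeding peptides outside the list, *TRH*, which encodes thyrotropin-releasing hormone, lay just below it at 0.59. Scaling by library size alone moved the median over all tested genes from -0.0044 to -0.10. Under that scaling 427 genes were called higher and 2484 lower, so that the higher ones made up 14.7% of all calls in place of 29.2%. There *gal* and *vgf* fell short of the threshold, at 0.57 and 0.59. Without hypoxia replicate 3 *vgf* fell just short as well, at 0.597. Over the 7 fits that left out a library the log2 fold change was 0.86 to 1.04 for *cart2*, 0.79 to 0.91 for *spx*, 0.63 to 0.69 for *gal* and 0.597 to 0.77 for *vgf*, and the ranges of *gal* and *vgf* overlapped.

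Whether the genes rose together was examined by the log2 ratio of each hypoxia library to the normoxia mean. The 4 genes were above the normoxia mean in every hypoxia library, which their choice by this contrast largely fixed. Their measured orders of the hypoxia libraries were not the same, though for *spx* and *gal* the differences were within counting error. For *cart2* the ratio was 0.81, 1.16 and 0.91 in hypoxia replicates 1 to 3, with replicate 2 the highest. For *gal* replicate 2 was also the highest, at 0.72 against 0.62 and 0.65. For *vgf* replicate 3 was the highest, at 0.84 against 0.50 in replicate 1 and 0.69 in replicate 2. The 3 ratios of *spx*, from 0.83 to 0.88, were nearly equal.

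The depth limits how far these orders can be read. Counting alone gives a relative error (1 divided by the square root of the count) of 8.39% to 8.77% for *spx* in the hypoxia libraries, where the spread between them was 2.04%. For *gal* the counting error was 5.29% to 5.34% and the spread 3.68%, so the order of the hypoxia libraries was not detectable for either gene at this depth. For *cart2* the spread was 12.8% with a counting error of 6.11% to 6.71%. Only for *vgf*, with a spread of 11.6% and a counting error of 1.59% to 1.79%, was the spread several times the counting error. Counting error does not include the variation that library preparation adds.

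The order seen for *vgf* was also the order of the other up-regulated genes as a group. The median ratio of the 725 other up-regulated genes was 0.70, 0.75 and 0.84 in hypoxia replicates 1 to 3. Of these genes, 60.1% were highest in replicate 3 and 58.2% were lowest in replicate 1.

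**Figure D2:**
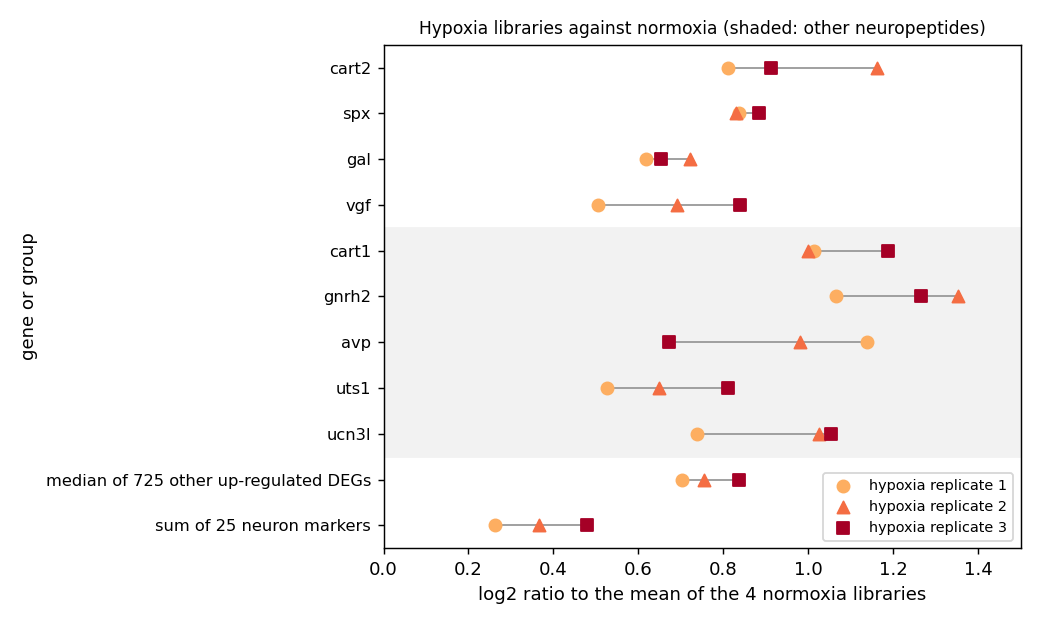
Log2 ratio of each hypoxia library (circle, triangle and square for replicates 1 to 3) to the mean of the 4 normoxia libraries, for the 4 genes, 5 other neuropeptide genes (shaded), the median of the 725 other up-regulated genes and the sum of 25 neuron marker genes. Grey lines span the 3 libraries. For *cart2* and *gal* replicate 2 is the highest, for *vgf* replicate 3 is, and the values of *spx* lie between 0.83 and 0.88.

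In normoxia the measured orders of the libraries also differed between the genes. Replicate 1 was the lowest library for *cart2*, *spx* and *vgf*, at -0.23, -0.19 and -0.15 on the log2 scale from the group mean, but replicate 4 was the lowest for *gal*. The highest library was replicate 2 for *cart2* and *vgf* and replicate 3 for *spx* and *gal*. The spread in normoxia was 10.2%, 11.2% and 3.48% for *cart2*, *spx* and *gal*. Their counting errors were 8.0% to 9.3%, 10.15% to 11.7% and 6.1% to 6.5%, so the order of these genes is not read further. For *vgf* the spread was 10.4% and the counting error 1.86% to 2.16%. Across all 7 libraries the log2 CPM of the 6 pairs of genes correlated at 0.911 to 0.979 (Pearson), which includes the difference between the groups by which the genes were chosen. After the group means were removed the correlation ran from 0.083 for *spx* and *vgf* to 0.736 for *cart2* and *gal*. These values describe 7 libraries that share their scaling and depth.

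The genes with a symbol whose profile over the 7 libraries was most like the mean of the 4 (Pearson correlation of log2 CPM, among 20599 genes with a mean of at least 50 counts) were *IDH2* (ENSDARG00000003795), *prdm8a* (ENSDARG00000092269) and *ckma* (ENSDARG00000035327), at 0.999, 0.998 and 0.998. They encode a mitochondrial isocitrate dehydrogenase, a PR domain protein and a muscle creatine kinase. Their log2 fold changes were 0.30, 0.50 and 0.38, smaller than those of the peptides, which had been chosen for theirs. The mean profile of the 4 carries the group difference that chose them. Likeness to it therefore selects genes with a clear difference between the groups, and no relation to the peptides is read from it.

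The study's list held 5 further neuropeptide genes, chosen by the same contrast and therefore also given without a test. The *cart1* gene (ENSDARG00000070930), a second CART gene, had a log2 fold change of 1.06 (SE 0.26) from only 13 to 36 counts per library. The *gnrh2* gene, which encodes a gonadotropin-releasing hormone of the midbrain, had 1.23 (SE 0.17). The crf-family genes *uts1* and *ucn3l* had 0.67 and 0.95 (SEs 0.12 and 0.15). The *avp* gene, which encodes a peptide of the vasopressin family, had 0.94 (SE 0.19). Its log2 ratios were 1.14, 0.98 and 0.67 in hypoxia replicates 1 to 3, the reverse order of *vgf*. These libraries held only 62 to 86 counts of *avp*, with a spread of 16.0% and a counting error of 10.8% to 12.7%. The order is therefore not read further. These 5 spanned 0.67 to 1.23, and the 4 feeding peptides 0.66 to 0.97.

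Most relatives and receptors of the 4 peptides had smaller log2 fold changes than the peptides, which had been chosen for theirs. Genes on the study's list, such as *cart1*, were left out here, and the list had used the same libraries and thresholds. For the related peptide genes a low count of up-regulated genes was therefore largely fixed by the choice. That list held hormone genes, so this does not apply to the receptor genes. The relatives and receptors were tested in edgeR's quasi-likelihood fit over all genes with Benjamini-Hochberg adjustment. Of 12 such genes tested, 0 were up-regulated and 1 was down-regulated by both thresholds (0 and 1 with DESeq2). Over all tested genes 3.07% and 7.45% were, and nothing is read from the first share. At an unadjusted p under 0.05, 2 were higher and 1 was lower (27.8% and 28.4% of all tested genes). Without normoxia replicate 4, 2 of the 12 were up-regulated by both thresholds, in a fit that called 817 genes higher over all genes. The median log2 fold change was 0.24, against -0.0044 over all tested genes.

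Among the CART genes, *cart4* (ENSDARG00000070142) rose by a smaller amount than *cart2*. It had 2.17 ± 0.148 CPM in normoxia and 2.90 ± 0.201 CPM in hypoxia without overlap, or 0.42 on the log2 scale (SE 0.11, adjusted p = 0.008 in edgeR). A further 2 identifiers carry the human symbol *CARTPT*. ENSDARG00000035852 had 1.37 ± 0.209 CPM (SD, n = 4) and 1.58 ± 0.258 CPM (SD, n = 3), with overlapping groups. ENSDARG00000104363 was near the floor, at 0.0803 to 0.224 CPM in normoxia and 0.208 to 0.282 CPM in hypoxia. Its log2 fold change was 0.77 (SE 0.36, adjusted p = 0.098 in edgeR). It was called up-regulated without normoxia replicate 4 and in a fit of replicates 1 to 3 with the replicate number as a block. Reads that the CART genes share could not be told apart in the deposited counts.

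Galanin and spexin act through galanin receptors. The receptor gene *galr2b* (ENSDARG00000105113) had 7.07, 8.48, 7.06 and 8.49 CPM in normoxia and 9.23, 10.5 and 10.6 CPM in hypoxia, so that the groups did not overlap. Its log2 fold change was 0.38 (SE 0.09, adjusted p = 0.0059 in edgeR), below the threshold of 0.6. The receptor gene *galr1b* had 1.85 ± 0.0843 CPM in normoxia and 1.88 ± 0.0752 CPM in hypoxia, a log2 fold change of 0.03 (SE 0.11). The genes named *GALR1* and *GALR2* had 0.13 (SE 0.26) and 0.67 (SE 0.39), the latter at a mean of 16.9 counts per library, and neither passed the test. *GALR2* was called up-regulated without normoxia replicate 4 and in the fit of replicates 1 to 3 with the replicate number as a block.

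Kisspeptin is the other close relative of galanin and spexin. The ligand genes *kiss1* and *kiss2* had log2 fold changes of 0.26 and -0.31 (SEs 0.34 and 0.43), and the receptor genes *kiss1ra* and *KISS1R* had 0.38 and 0.18 (SEs 0.20 and 0.31). None of these 4 passed an adjusted p of 0.05 in edgeR, and all had overlapping groups. The gene called down-regulated was *gpr160* (ENSDARG00000038700), proposed in mammals as a receptor for CART. It had 2.65, 1.78, 2.43 and 2.44 CPM in normoxia and 1.75, 1.79 and 0.879 CPM in hypoxia, so that the groups overlapped at normoxia replicate 2. Its log2 fold change was -0.66 (SE 0.23, adjusted p = 0.031 in edgeR). The call was lost without normoxia replicate 1, 3 or 4 and without hypoxia replicate 3, with an adjusted p of up to 0.09 and a log2 fold change of -0.82 to -0.40 over the 7 fits that left out a library. The gene *C3AR1*, matched as the receptor of a VGF peptide known in mammals, was below the count filter at a mean of 9.43 counts.

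**Figure D3:**
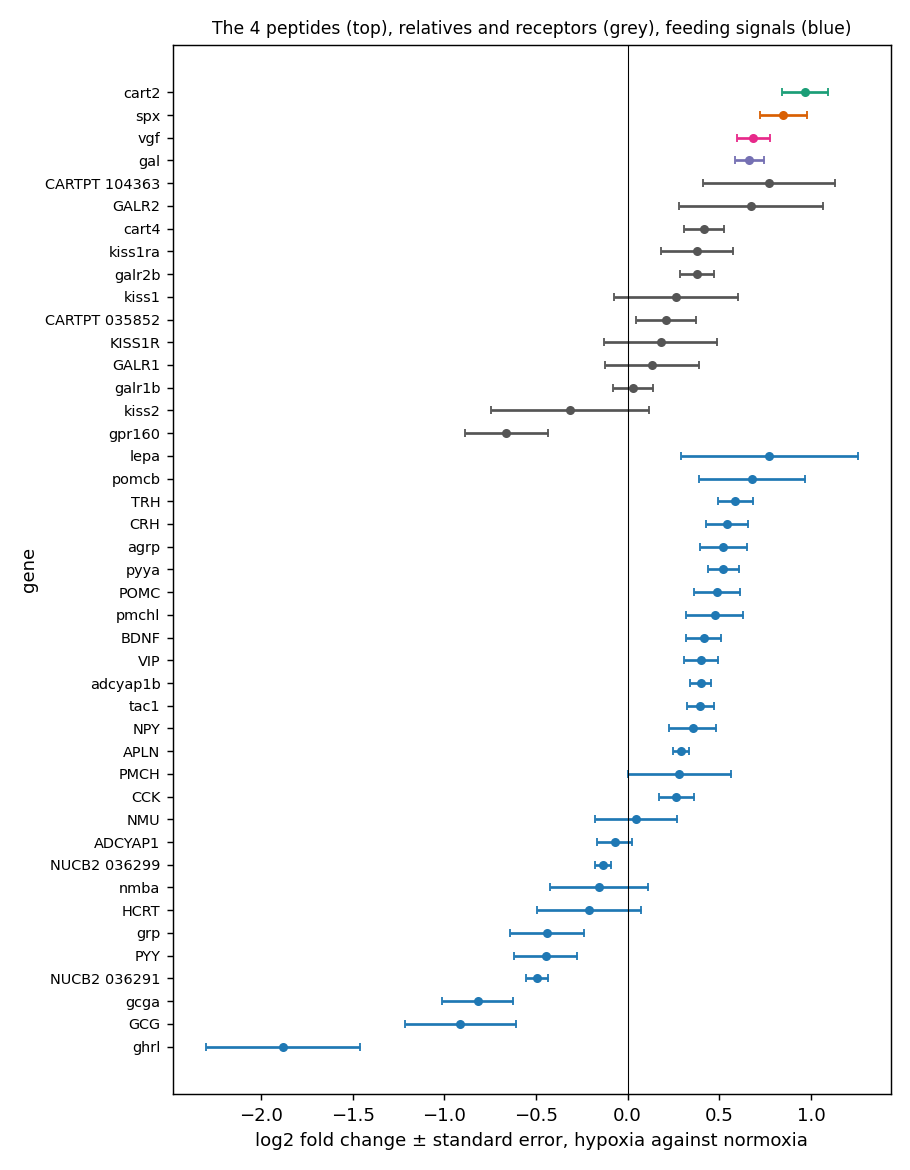
Log2 fold change of hypoxia against normoxia with its standard error for the 4 genes (top, coloured), 12 relatives and receptors (grey) and 27 other feeding signals (blue), 1 row per gene. Digits after a symbol are the end of the Ensembl identifier where a symbol occurs more than once. The peptides lie between 0.66 and 0.97, and the points above *gal* in the other groups, a *CARTPT* gene (ENSDARG00000104363), *GALR2*, *lepa* and *pomcb*, have SEs of 0.29 or more.

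Other peptides and hormones of feeding moved in both directions. Those on the study's list were again left out, so the absence of up-regulated genes in the fit of all libraries was largely fixed by the choice. Of 27 tested, 0 were up-regulated and 3 down-regulated by both thresholds (0 and 2 with DESeq2), against 3.07% and 7.45% of all tested genes. With the adjusted p alone, 13 were higher and 5 lower in hypoxia, where 24.6% and 25.1% of all tested genes were. At an unadjusted p under 0.05, 14 were higher and 6 lower, where 27.8% and 28.4% of all tested genes were. By both thresholds 5 were up-regulated without hypoxia replicate 1 and 2 without normoxia replicate 3. Over all genes these fits called 913 and 708 higher, against 729 with all libraries. The median log2 fold change of the list was 0.29. The only members with a log2 fold change above that of *gal* were *pomcb* and *lepa*, at 0.68 (SE 0.29) and 0.77 (SE 0.48), and neither passed the adjusted p.

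Among the signals that were higher were some that raise and some that lower feeding. Genes of peptides that raise feeding included *agrp*, which rose from 1.43 ± 0.0974 to 2.05 ± 0.239 CPM (0.52 on the log2 scale, SE 0.13, adjusted p = 0.0063 in edgeR), and *NPY*, with overlapping groups and a log2 fold change of 0.35 (SE 0.13, adjusted p = 0.041). Genes of peptides that lower feeding included *POMC* (ENSDARG00000043135), the melanocortin precursor, at 0.49 (SE 0.13, adjusted p = 0.008), and *CRH*, the corticotropin-releasing hormone, at 0.54 (SE 0.11, adjusted p = 0.0026). The *TRH* gene, not assigned to either side here, rose from 8.48 ± 0.596 to 12.7 ± 1.75 CPM (adjusted p = 0.0006). It passed both thresholds without normoxia replicate 3 or hypoxia replicate 1. These genes were singled out after their values were seen. The gene of orexin, *HCRT*, had -0.21 (SE 0.28) and did not pass.

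Of the 5 feeding signals that were lower by the adjusted p, 2 were *NUCB2* genes, which encode the precursor of nesfatin, a brain peptide that lowers feeding. ENSDARG00000036291 fell from 15.4 ± 0.321 CPM to 10.9 ± 0.757 CPM, or -0.49 on the log2 scale (SE 0.06, adjusted p = 0.00015 in edgeR), and ENSDARG00000036299 by a smaller amount, at -0.13 (SE 0.04, adjusted p = 0.021), both without overlap of the groups. The gut peptide gene *PYY* (ENSDARG00000035832) had -0.45 (SE 0.17) and did not pass, whereas its relative *pyya* was higher at 0.52 (SE 0.08, adjusted p = 0.00054). The 3 decreases past both thresholds were those of gut and islet hormones. The glucagon genes *gcga* and *GCG* (ENSDARG00000040907) fell from 3.30 ± 0.417 to 1.87 ± 0.650 CPM and from 2.75 ± 0.592 to 1.46 ± 0.842 CPM, with adjusted p of 0.0054 and 0.027 in edgeR. The call of *GCG* was lost with DESeq2 and without normoxia replicate 1, hypoxia replicate 2 or hypoxia replicate 3. The gene of ghrelin, *ghrl*, a stomach hormone that raises feeding in mammals, had 12 to 17 counts in normoxia and 5, 3 and 2 counts in hypoxia replicates 1 to 3. It was below the count set for named genes and is given because it completes the 3.

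Of 21 receptors of these signals tested, 0 were up-regulated and 1 down-regulated (also 0 and 1 with DESeq2), against 3.07% and 7.45% of all tested genes. With the adjusted p alone, 2 were higher and 1 was lower, where 24.6% and 25.1% of all tested genes were. At an unadjusted p under 0.05, 5 were higher, a share near the 27.8% of all tested genes. Only 1 was lower, where 28.4% of all tested genes were. Without normoxia replicate 3 or hypoxia replicate 1, 1 was up-regulated by both thresholds, in fits that called 708 and 913 genes higher over all genes. The one that fell was *CCKAR* (ENSDARG00000052089), the cholecystokinin receptor of the gut and pancreas, with 2.29 ± 0.560 CPM in the 4 normoxia libraries against 1.15 ± 0.207 CPM in the 3 hypoxia libraries, or -0.99 on the log2 scale (SE 0.20, adjusted p = 0.0022 in edgeR).

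The machinery that packs and cuts neuropeptides was higher in hypoxia throughout the list. All 15 genes tested, which included granins, prohormone convertases, carboxypeptidase E and the amidating enzyme, were higher at an adjusted p under 0.05 in edgeR, and in all 15 the groups did not overlap. Leaving out each library in turn gave 13 to 15, and library size alone gave 13. For comparison, 24.6% of all tested genes were higher by this adjusted p, and 26.3% had groups that did not overlap with hypoxia higher. Their log2 fold changes ran from 0.29 to 0.66 with a median of 0.39. None was above those of the 4 peptides, although *PTPRN* and *gal* were equal to 2 decimals. The peptides had been chosen for their rise in these libraries, so nothing is read from this difference.

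By both thresholds 3.07% of all tested genes were higher. Of the granule genes only *PTPRN* (ENSDARG00000077047), a protein of the granule membrane, also passed the fold threshold. It had 16.9 to 18.6 CPM in normoxia and 24.9 to 30.6 CPM in hypoxia, or 0.66 on the log2 scale (SE 0.07, adjusted p = 6.2e-05 in edgeR). This call was lost with library size alone and without hypoxia replicate 3, while 3 granule genes were called without hypoxia replicate 1 and 2 without normoxia replicate 2. Over all genes the last 2 of these fits called 913 and 728 higher. The convertase gene *PCSK1*, at 0.57 (SE 0.07), and the secretogranin gene *scg2b*, at 0.54 (SE 0.08), came next. They were named after their values were seen.

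Genes that mark neurons in general were also higher in hypoxia, so such genes made up a larger share of the counts. Of 25 neuron markers tested, 23 were higher and 0 lower at an adjusted p under 0.05 in edgeR (24 and 0 at an unadjusted p under 0.05), where 24.6% of all tested genes were higher and 25.1% lower, and leaving out each library in turn gave 21 to 24 higher. The median log2 fold change was 0.36. Their summed level was 4237 to 4648 CPM in normoxia and 5379 to 6243 CPM in hypoxia, and no marker was at 0 in all libraries. In whole-body samples more cells of a type, more RNA per cell and less RNA from other tissues cannot be told apart. The log2 ratio of the sum to the normoxia mean was 0.26, 0.37 and 0.48 in hypoxia replicates 1 to 3, the order of *vgf*. By both thresholds 1 neuron marker was higher, where 3.07% of all tested genes were. This marker was *TH*, the tyrosine hydroxylase of catecholamine neurons, at 0.71 (SE 0.10, adjusted p = 0.00027). It was also the only one above *gal* and *vgf*, which had been chosen for their rise.

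**Figure D4:**
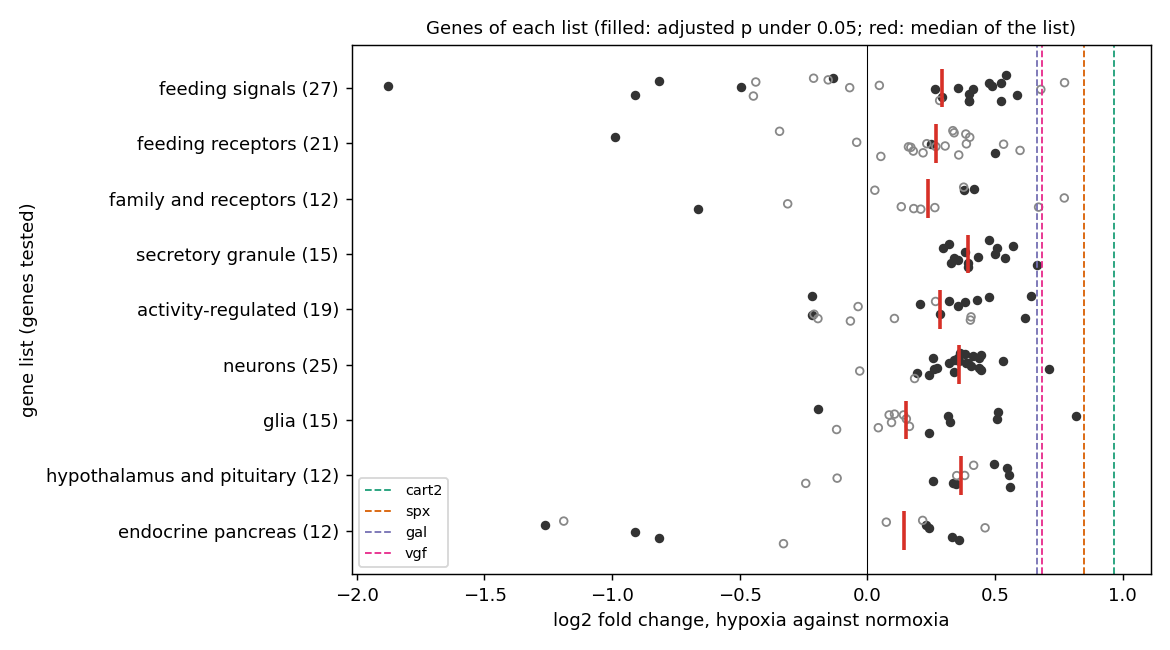
Log2 fold change of hypoxia against normoxia for the tested genes of 9 lists, 1 point per gene, with the number tested after each name. Filled points passed an adjusted p of 0.05 in edgeR, red bars are list medians and dashed lines mark *cart2*, *spx*, *gal* and *vgf*. All 15 granule genes and 23 of 25 neuron markers are filled and to the right of 0. Their medians of 0.39 and 0.36 are to the left of the 4 dashed lines, which mark genes chosen for their rise.

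The levels of the peptides relative to the summed neuron markers were therefore computed, a scaling chosen after these values were seen. For *cart2* there were 0.377 to 0.438 CPM per 1000 CPM of neuron markers in normoxia and 0.565 to 0.727 in hypoxia. For *spx* the ranges were 0.234 to 0.293 and 0.339 to 0.381. For *gal* they were 0.706 to 0.789 and 0.852 to 0.966, and for *vgf* 6.96 to 8.04 and 8.64 to 9.40. The log2 ratio of the means was 0.60 for *cart2*, 0.48 for *spx*, 0.30 for *gal* and 0.31 for *vgf*. The log2 fold changes with TMM scaling were 0.97, 0.85, 0.66 and 0.68. The groups did not overlap for any of the 4, which had been chosen for their rise. The share of all tested genes without overlap was not computed under this scaling, so nothing is read from the separation. The part of the neuron markers in the rise of the peptides was not tested.

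**Figure D5:**
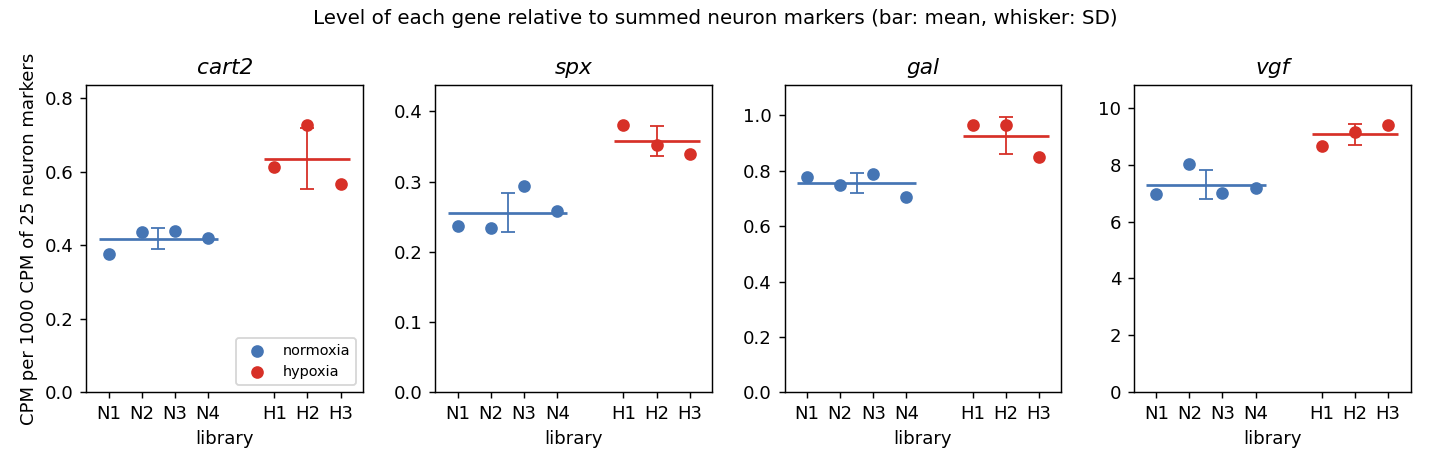
CPM of each gene per 1000 CPM of the summed 25 neuron markers, on a linear axis from 0, in normoxia libraries N1 to N4 (blue) and hypoxia libraries H1 to H3 (red). Points are libraries, bars are means and whiskers are SD. The hypoxia libraries lie above the normoxia libraries in each panel, with log2 ratios of the means of 0.30 for *gal* to 0.60 for *cart2*. The genes were chosen for their rise.

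Markers of other cells that could hold these peptides were mixed, and the shares of all tested genes to set beside them are again 24.6% higher and 25.1% lower at an adjusted p under 0.05. Of 12 hypothalamus and pituitary genes, 7 were higher and 0 lower at an adjusted p under 0.05 (7 and 0 at an unadjusted p under 0.05), with a summed level of 116.7 to 119.7 CPM in normoxia and 142.2 to 162.6 CPM in hypoxia. None passed both thresholds in edgeR or DESeq2. In edgeR 1 gene did without normoxia replicate 1, and a different gene did without hypoxia replicate 1. Over all genes these fits called 670 and 913 higher. The gene with the highest level was *OTP* (ENSDARG00000014201), a transcription factor of neuroendocrine neurons, at 0.35 (SE 0.06, adjusted p = 0.00057). Of 12 genes of the endocrine pancreas, 4 were higher and 3 lower at an adjusted p under 0.05, which is close to those shares. By both thresholds 0 were higher and 3 lower (also 0 and 3 with DESeq2), where 3.07% and 7.45% of all tested genes were. The 3 decreases in edgeR were those of *ins*, the insulin gene, at -1.26 (SE 0.32, adjusted p = 0.0075), and of the glucagon genes above. A further gene of this list, *sst2*, was not called in the main fit. It was called with library size alone, DESeq2 and the replicate block, and without normoxia replicate 2 or hypoxia replicate 1. Its log2 fold change was -2.33 to -0.75 over the 7 fits that left out a library. The summed level of this list, 449.9 to 487.0 CPM in normoxia and 526.1 to 599.6 CPM in hypoxia, was made up mostly of *NEUROD1*, *PAX6* and *ISL1*, transcription factor genes that neurons also express. Of 15 glia genes, 6 were higher and 1 lower, with a median of 0.15 and a summed level of 2064 to 2198 CPM in normoxia and 2424 to 2786 CPM in hypoxia. By both thresholds 1 glia gene was higher, where 3.07% of all tested genes were. This gene was *SLC1A2* (ENSDARG00000052138), a glutamate transporter, at 0.82 (SE 0.09, adjusted p = 6.6e-05).

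Because *vgf* is induced by neuronal activity and growth factors, 19 other genes of this kind were examined. By both thresholds 2 were up-regulated and 0 down-regulated (also 2 and 0 with DESeq2), against 3.07% and 7.45% of all tested genes. At an adjusted p under 0.05 alone 9 were higher and 2 lower, against 24.6% and 25.1%, with 3 lower at an unadjusted p under 0.05. The median log2 fold change was 0.28. The genes called were *fosaa* (ENSDARG00000040135), an AP-1 subunit, at 0.64 (SE 0.10, adjusted p = 0.00042), and *NR4A2* (ENSDARG00000044532), a nuclear receptor of dopamine neurons, at 0.62 (SE 0.06, adjusted p = 2.6e-05). Both calls were lost with library size alone and without hypoxia replicate 3, and that of *fosaa* also without normoxia replicate 1.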

How the data were processed

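The deposited values are whole-number counts per Ensembl gene. The authors trimmed the reads (Trimmomatic 0.39), aligned them to GRCz11 with STAR 2.7.10 and counted them with featureCounts 2.0.7, without normalization. The setting for strand and the treatment of reads that map to several places are not given in the sources used here. No gene in the table had a total below 10 counts. The 7 columns were matched to the samples by library name.

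Counts were filtered (filterByExpr), scaled by TMM and fitted in R 4.3.3 with edgeR 4.0.16 (glmQLFit and glmQLFTest, Benjamini-Hochberg adjustment over all tested genes). DEGs passed an adjusted p of 0.05 and a log2 fold change of 0.6 in either direction. Standard errors (SE) were derived from the log2 fold change and the square root of the F statistic. A prior count of 2 entered log2 CPM. Scripts were checked on simulated data. Alternatives were DESeq2 1.42.0, other scalings and count filters, the threshold inside the test, a replicate block and leaving out each library.

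The members and gene lists were chosen with earlier results of these data known. Symbols came from a table of Ensembl identifiers, which named 92.8% of the genes, some by a human symbol. From 80.0% to 100.0% of each list's symbols were matched, and 2 *CARTPT* identifiers were added afterwards. Named were the peptides, every relative and receptor, at most 5 called genes per list with a mean of at least 50 counts (where none was called, the gene with the highest CPM), and the 3 genes of most similar profile. Further genes of the feeding, granule and pancreas lists, among them *agrp*, *NPY*, *POMC*, *CRH*, *TRH*, *HCRT*, *PYY*, *pyya*, *NUCB2*, *pomcb*, *lepa*, *ghrl*, *PCSK1*, *scg2b* and *sst2*, fall outside this rule and were named after their values were seen. In the RefSeq annotation of GRCz12tu, used only for names and neighbours, no gene overlapped the 4 peptide genes.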

Additional observations from a re-analysis of the deposited data

How the results depend on the processing

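No alternative reversed the direction of *cart2*, *spx*, *gal* or *vgf*, and *cart2* and *spx* passed the fold threshold with every scaling of the whole library, count filter and left-out library tried. DESeq2, its size factors, upper-quartile factors and both other count filters kept all 4 calls. Scaling by library size alone moved *gal* to 0.57 (0.54, 0.61 and 0.55 in hypoxia replicates 1 to 3), the DEGs to 427 higher, and the granule and activity-regulated genes called higher to 0 each. Scaling to the summed neuron markers, chosen after seeing the data, gave 0.60, 0.48, 0.30 and 0.31 for *cart2*, *spx*, *gal* and *vgf*. With the fold threshold inside the test (glmTreat) 0 of the 4 peptide genes were called, 133 DEGs were higher and 167 lower over all genes, and 0 genes were called in either direction in the family, feeding, receptor, granule, activity-regulated, neuron, glia and endocrine pancreas lists. The adjusted p of this test already includes the fold threshold. By it 0 feeding signals, granule genes and neuron markers were higher, the 3 lists for which it was run. These counts answer another question than the adjusted p of the main test and are not set against its counts. Leaving out each library in turn gave 576 to 913 DEGs higher and 1271 to 2266 lower. In these fits the genes called higher were 0 to 2 relatives and receptors, 0 to 5 feeding signals, 0 to 1 feeding receptors, 0 to 3 granule genes, 0 to 2 activity-regulated genes and 0 to 1 hypothalamus and pituitary genes, and 0 to 1 relatives and receptors were called lower.

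Deviations in the normoxia and the hypoxia library that share a number correlated at 0.341, 0.062 and 0.022 for replicates 1, 2 and 3. No such value was computed for libraries with different numbers. Whether the replicate numbers pair the libraries is therefore not settled by these values. With a replicate block over replicates 1 to 3 the log2 fold changes were 0.98, 0.87, 0.65 and 0.69 for *cart2*, *spx*, *gal* and *vgf*, and the block gave 827 DEGs higher and 1873 lower, with 2 relatives and receptors, 1 feeding signal and 2 granule genes called higher. No cause of these shifts was tested. Genes with few counts, such as *cart1*, *kiss2* and *ghrl*, are limited by depth.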
